A study of Homo sapiens with 6 samples.

Results

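The genes of the plasminogen activation system were followed across 6 messenger RNA libraries of Rh30 cells, a line of alveolar rhabdomyosarcoma (a childhood tumour of muscle character) positive for the PAX3-FOXO1 gene fusion. The set holds 8 genes taken by name, PLAT, PLAU, PLAUR, SERPINE2, SERPINB2, ANXA2, S100A10 and PLGRKT, and all 8 had transcripts in the deposited tables. It had been chosen on the contrast of siDDX5 with control cells in these same libraries, so the differences below describe the set and support nothing beyond it. Of the 8 genes, 7 passed the filter on low counts, out of 15204 genes that passed it in all. SERPINB2 did not pass and is given by its values only.

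Each group held 3 libraries, numbered 1 to 3 and described by the study as biological replicates. Control libraries carry only that word in the labels, and siDDX5 libraries carry a knockdown of DDX5, which encodes a DEAD-box RNA helicase. Both groups are the same single cell line with the fusion, and the labels give neither the sequence nor the dose nor the duration of the knockdown, nor what the control cells received. They do not say how the replicates were separated, so the p values measure the spread between these libraries. Libraries held 18202402 to 26156858 estimated counts, and the 3 siDDX5 libraries were all less deep than the 3 control libraries. DDX5 itself had 1312 ± 154 CPM (SD, n = 3) in control and 485 ± 79.3 CPM (SD, n = 3) in siDDX5 cells, where CPM is the count scaled to a common library size with TMM factors. Its log2 fold change was -1.44 (SE 0.15) with an adjusted p of 0.0115 in edgeR. TPM also divides by transcript length and is used wherever levels of different genes are set side by side. All 8 myoblast and rhabdomyosarcoma markers examined were at or above 1 TPM, and their summed level was 1174 to 1509 TPM in control and 1132 to 1200.3 TPM in siDDX5 libraries. Within that list FGFR4 had 211 to 231 TPM in control and 184 to 193 TPM in siDDX5 libraries, without overlap. The other markers of that list overlapped between the groups. Summed epithelial markers were 1.53 to 1.81 TPM in control and 1.38 to 2.50 TPM in siDDX5 libraries. Among them CDH1 had 0.477, 0.898 and 0.525 TPM in control replicates 1, 2 and 3 and 1.21, 1.06 and 1.14 TPM in siDDX5 replicates 1, 2 and 3, without overlap. EPCAM went the other way, also without overlap, with 0.249 to 0.341 TPM in control and 0.131 to 0.209 TPM in siDDX5 libraries. KRT5 and KRT14 overlapped between the groups. Summed fibroblast markers were 77.3 to 104 TPM in control and 90.5 to 105 TPM in siDDX5 libraries. Of these, THY1 stood at 67.8 to 90.3 TPM, PDGFRB at 5.63 to 14.5 TPM and DCN at 0.771 to 3.06 TPM, while FAP and LUM stayed under 1 TPM in every library. FAP had 0 to 0.212 TPM in control and 0.221 to 0.697 TPM in siDDX5 libraries, without overlap. The other fibroblast markers overlapped between the groups. Summed endothelial markers were 5.50 to 7.27 TPM in control and 4.55 to 6.42 TPM in siDDX5 libraries. Summed leukocyte markers, led by CD68, were 19.1 to 22.3 TPM in control and 14.7 to 16.5 TPM in siDDX5 libraries. CD68 itself had 14.9 to 16.7 TPM in control and 9.44 to 12.3 TPM in siDDX5 libraries. PTPRC, CD14 and ITGAM overlapped between the groups. The part of other cell types in the results was not tested.

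Plasminogen is a circulating zymogen that is cut to plasmin, a broad serine protease that dissolves fibrin and degrades matrix. Tissue-type activator (tPA, from PLAT) and urokinase (uPA, from PLAU) make this cut, serpins trap the activators in covalent complexes, and receptors gather activator and zymogen at the cell surface. In tumours the system is known for its part in matrix breakdown and cell migration.

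Among the 8 genes, PLAT was the only one with a called difference. PLAT fell 1.97-fold with the knockdown, while PLAU, the other activator, had a log2 fold change of -0.12 and the receptors and inhibitors lay between -0.20 and 0.34. Calls rest on edgeR's quasi-likelihood test with p values adjusted by Benjamini-Hochberg over all genes tested, at a threshold of 0.05. By that rule 1 of the 7 tested genes was called, lower, against 0.171% of all 15204 genes. With the replicate number as a block it was also 1, against 2.48% of all genes. The median log2 fold change was -0.06 over the 7 genes and 0 over all genes tested. The groups did not overlap in 1 of the 7 genes, against 18.1% of all genes tested.

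**Figure D1:**
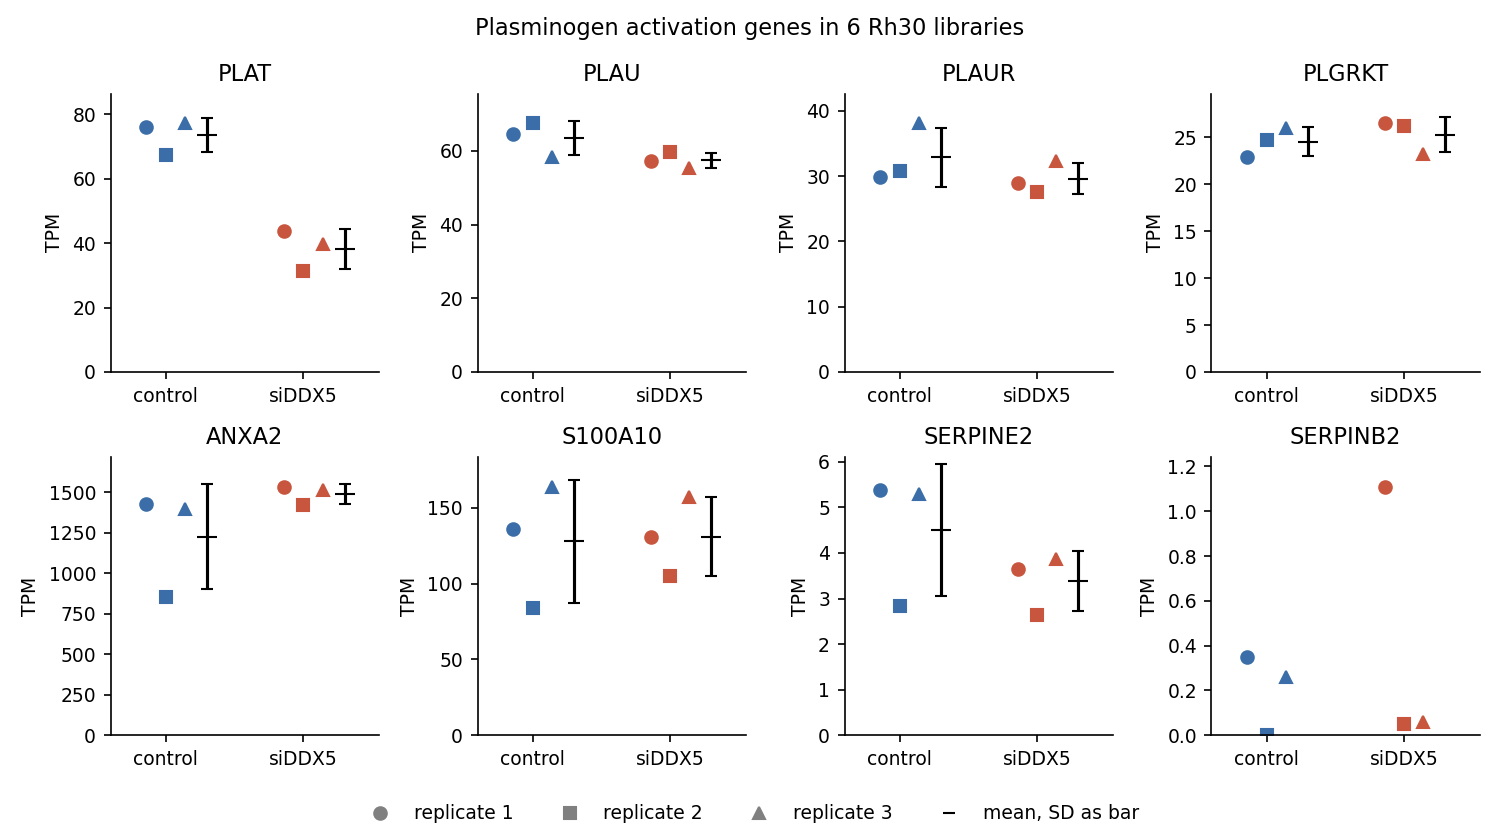
Level of each gene in TPM (vertical axes, starting at 0 and scaled per gene) in control and siDDX5 libraries. Points are libraries, with a shape for each replicate number, and bars give the mean and SD of 3 (none drawn for SERPINB2). For PLAT alone the groups are apart, 67.5 to 77.2 TPM against 31.3 to 43.7 TPM, and control replicate 2 is low for ANXA2, S100A10 and SERPINE2.

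SERPINE2 and PLAUR each had a pair of protein-coding transcripts with at least 10% of the gene's counts in one group or both. The stretches in which the coding sequences of each pair part are shown. All are read 5′ to 3′ from the transcript sequences of GENCODE release 29 (GRCh38), on the minus strand. For SERPINE2 (chromosome 2, 223980368 to 223982710, a stretch that spans an intron), the forms share their first 985 coding bases, and capitals mark the 3 bases that ENST00000258405 has and ENST00000409304 lacks, at coding positions 986 to 988.

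ENST00000409304: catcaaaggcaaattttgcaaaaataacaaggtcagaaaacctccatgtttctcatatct
ENST00000258405: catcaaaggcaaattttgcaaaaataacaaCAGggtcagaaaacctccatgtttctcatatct

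For PLAUR (chromosome 19), the forms share 757 coding bases, and capitals mark the first 42 bases after the point where they part. ENST00000340093 has a coding sequence of 1005 bases and ENST00000339082 one of 843 bases.

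ENST00000340093: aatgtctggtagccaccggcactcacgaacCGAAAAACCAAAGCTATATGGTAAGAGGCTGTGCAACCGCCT
ENST00000339082: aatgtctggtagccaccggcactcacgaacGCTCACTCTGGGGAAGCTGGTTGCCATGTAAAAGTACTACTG

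The tables list ENST00000258405 and ENST00000340093 in a later version than release 29 does, so the deposited and the shown forms may differ outside these stretches. In release 29 the forms of each pair also start at different positions, so the transcript values need not rest on the shown stretches alone. The starts are 224039288 (ENST00000409304) and 224039319 (ENST00000258405) for SERPINE2, and 43670350 (ENST00000340093) and 43670166 (ENST00000339082) for PLAUR. The leading ANXA2 transcripts, ENST00000451270 and ENST00000421017, have identical coding sequences of 1017 bases.

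The activators were compared first. PLAT (ENSG00000104368.17, chromosome 8, 42175233 to 42207724, minus strand) had 128, 101 and 119 CPM in control replicates 1, 2 and 3 and 60.0, 54.3 and 62.7 CPM in siDDX5 replicates 1, 2 and 3. Every siDDX5 library lay well below every control library, and replicate 2 was the lowest library of both groups. The means were 116 ± 13.5 and 59.0 ± 4.30 CPM (SD, n = 3 each). The log2 fold change was -0.97 (SE 0.12, 95% interval -1.24 to -0.71) with an edgeR adjusted p of 0.0202, and -0.97 (SE 0.08) with an adjusted p of 0.00229 under the block. By p value PLAT stood 9th of the 15204 genes. In these bulk libraries, fewer cells with PLAT mRNA and less PLAT mRNA per cell cannot be told apart. Over 15 alternative settings the log2 fold change ran from -1.06 to -0.89 and 8 kept the call. It was lost without control replicate 1 (edgeR adjusted p 0.104) and without siDDX5 replicate 1 (0.107), 2 (0.0819) or 3 (0.0692). It was kept without control replicate 2 (edgeR adjusted p 0.0413) or 3 (0.0412). Every fit that left out a library had 2 libraries in one group.

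PLAT counts were spread over 12 transcripts, of which one led. The protein-coding ENST00000220809.8 held 84.1%, 76.6% and 83.3% of PLAT counts in control replicates 1, 2 and 3 and 72.8%, 75.4% and 79.1% in siDDX5 replicates 1, 2 and 3. The shares overlapped between the groups. Its level was 54.1, 39.7 and 51.5 TPM in the control and 23.4, 18.9 and 25.4 TPM in the siDDX5 libraries, so that the groups were apart for the level and not for the share. The fitted log2 fold change of this transcript was -1.05 (SE 0.17), with an edgeR adjusted p of 0.258 over all transcripts. The other 6 transcripts tested had log2 fold changes from -1.25 (ENST00000520523.5) to -0.14 (ENST00000521647.1, a retained intron), none of them called. Relative usage of PLAT transcripts had a Simes adjusted p of 1.00, beside 1.58% of genes called in that test.

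PLAU (ENSG00000122861.15, chromosome 10, 73909177 to 73917497, plus strand) had 93.9, 97.5 and 77.5 CPM in control replicates 1, 2 and 3 and 78.8, 96.7 and 71.8 CPM in siDDX5 replicates 1, 2 and 3. The groups overlapped, and the replicate 3 library was the lowest of each. The log2 fold change was -0.12 (SE 0.14, 95% interval -0.43 to 0.19, edgeR adjusted p 0.792), an interval that does not reach the PLAT estimate. A single transcript, ENST00000372764.4, held 97.0% to 98.4% of its counts in every library.

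Per length, PLAT and PLAU stood side by side in control cells. PLAT had 76.0, 67.5 and 77.2 TPM and PLAU 64.7, 67.5 and 58.4 TPM in control replicates 1, 2 and 3, and these ranges touched in replicate 2. In siDDX5 replicates 1, 2 and 3 PLAT had 43.7, 31.3 and 39.6 TPM and PLAU 57.4, 59.6 and 55.5 TPM, and every PLAU value lay above every PLAT value. The ratio of PLAT to PLAU was 1.17, 1.00 and 1.32 in the control and 0.760, 0.525 and 0.713 in the siDDX5 libraries. The sum of both activators was 135 to 141 TPM in the control and 90.9 to 101 TPM in the siDDX5 libraries. The ratio draws on the contrast for which PLAT was picked and is given without a test.

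**Figure D2:**
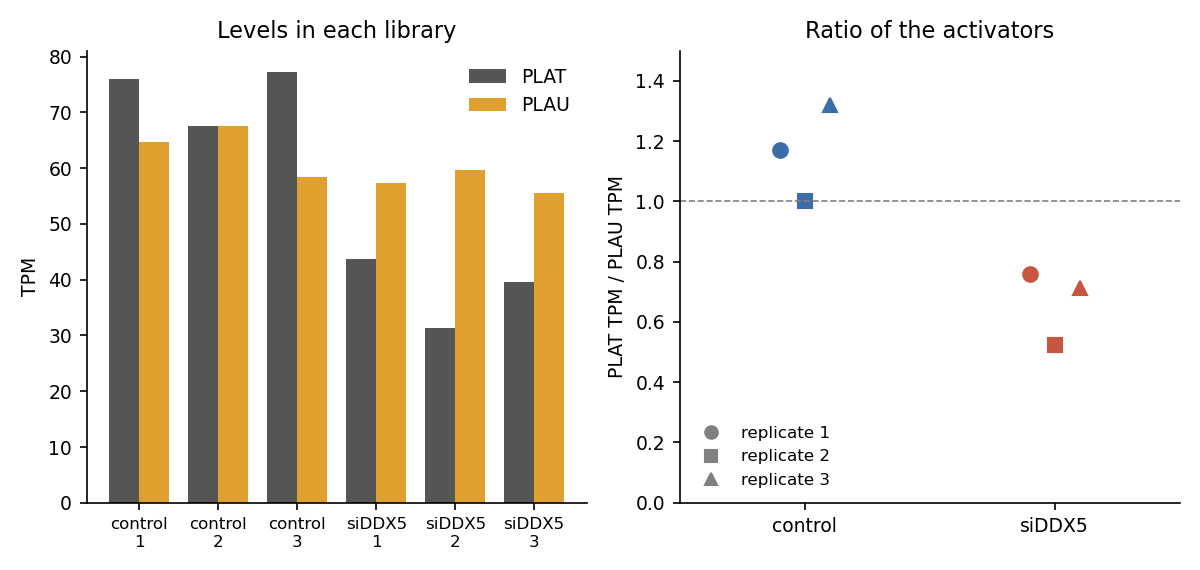
Left, PLAT and PLAU in TPM (bars from 0) in each of the 6 libraries; right, the ratio of PLAT to PLAU TPM per library, with the dashed line at equal levels. The ratio is 1.00 to 1.32 in control and 0.525 to 0.760 in siDDX5 libraries, where PLAU is the more abundant activator in all 3.

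PLAUR encodes the urokinase receptor uPAR, which holds urokinase at the cell surface through a glycolipid anchor. PLAUR (ENSG00000011422.11, chromosome 19, 43646095 to 43670547, minus strand) had 20.4, 20.1 and 25.6 CPM in control replicates 1, 2 and 3 and 18.5, 21.9 and 22.9 CPM in siDDX5 replicates 1, 2 and 3. The groups overlapped almost fully, with a log2 fold change of -0.06 (SE 0.15, 95% interval -0.39 to 0.27, edgeR adjusted p 0.909). The longer coding form ENST00000340093.8 held 53.9% ± 7.04 of PLAUR counts in control and 60.9% ± 3.38 in siDDX5 cells (SD, n = 3 each). The form that parts from it after coding base 757, ENST00000339082.7, held 13.5% ± 3.65 and 11.7% ± 1.16 (SD, n = 3 each). Both shares overlapped between groups. The ratio of PLAU to PLAUR in TPM was 1.54 to 2.19 in control and 1.72 to 2.16 in siDDX5 libraries.

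The inhibitors in the set were low. SERPINE2 encodes protease nexin 1, a serpin that inhibits thrombin, urokinase and tPA. SERPINE2 (ENSG00000135919.12, chromosome 2, 223975112 to 224039319, minus strand) had 5.70, 4.51 and 6.26 CPM in control replicates 1, 2 and 3 and 5.26, 4.13 and 4.97 CPM in siDDX5 replicates 1, 2 and 3. The groups overlapped, and replicate 2 was lowest in both. SERPINE2 had a log2 fold change of -0.20 (SE 0.20, 95% interval -0.65 to 0.26), at an adjusted p of 0.759 in edgeR.

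Within SERPINE2 the coding transcripts lay further apart between the groups than the gene total did, without passing the test. The form without the 3 extra bases, ENST00000409304.5, had 74.1, 57.3 and 77.9 estimated counts in control replicates 1, 2 and 3 and 19.2, 22.6 and 38.2 in siDDX5 replicates 1, 2 and 3. The form with them, ENST00000258405.9, had 8.19, 0 and 8.34 estimated counts in the control and 34.1, 14.9 and 18.1 in the siDDX5 libraries. As a share of the gene the first went from 53.7% ± 4.57 to 30.1% ± 12.2 and the second from 3.71% ± 3.21 to 24.0% ± 7.11 (SD, n = 3 each), and neither pair of groups overlapped. How often the shares of all transcripts lie apart in this way was not counted, so the lack of overlap cannot be weighed. The retained intron ENST00000473202.1 held 37.5% ± 3.56 and 41.3% ± 6.78 (SD, n = 3 each), with overlap. These differences were not called: the Simes adjusted p for usage was 0.187, and 0.320 with the block, and it ran from 0.286 to 0.928 (without control replicate 2) in the fits that left out 1 library. The counts are small, and the tables hold no estimate of the error of dividing reads between them.

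**Figure D3:**
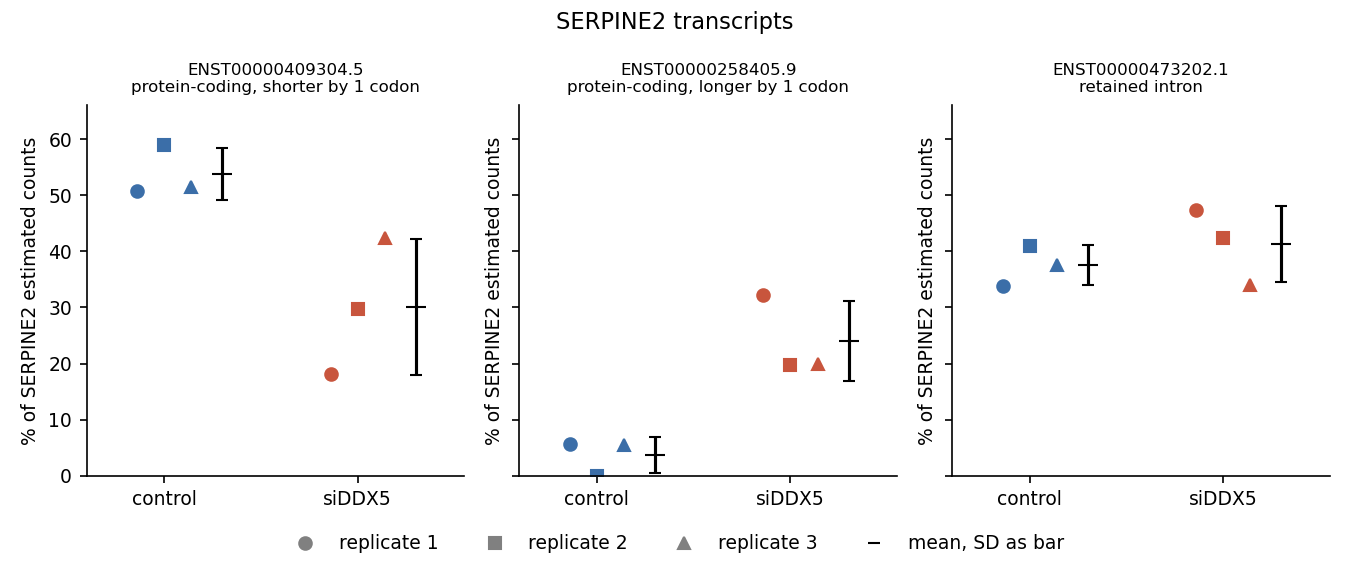
Share of SERPINE2 estimated counts (vertical axis, percent) held by its 3 leading transcripts in control and siDDX5 libraries. Points are libraries and bars give the mean and SD of 3; the first form is at 50.7% to 59.0% in control and 18.1% to 42.4% in siDDX5 libraries, the second at 0 to 5.61% and 19.7% to 32.2%.

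SERPINB2 encodes plasminogen activator inhibitor 2, an inhibitor of urokinase found mostly inside cells. SERPINB2 (ENSG00000197632.8, chromosome 18, 63871692 to 63903890, plus strand) had 9, 0 and 2 counts in control replicates 1, 2 and 3 and 16, 1 and 1 counts in siDDX5 replicates 1, 2 and 3. In 4 of the 6 libraries it was under 3 counts, the floor used here for a level that the depth can show (0.115 to 0.165 CPM). The replicate 1 library of each group was above that floor. In those libraries the protein-coding ENST00000299502.9 held 8.54 and 13.7 of the counts, and the processed transcript ENST00000482254.1 held 0 and 2.35.

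The plasminogen receptors spanned the widest range of levels. ANXA2 encodes annexin A2, a calcium-dependent membrane-binding protein that forms a tetramer with S100A10 (p11), whose C-terminal lysine binds plasminogen. ANXA2 (ENSG00000182718.16, chromosome 15, 60347134 to 60402883, minus strand) had 1427, 851 and 1399 TPM in control replicates 1, 2 and 3 and 1534, 1418 and 1511 TPM in siDDX5 replicates 1, 2 and 3. Control replicate 2 stood far below the other 5 libraries, which lay within 1399 to 1534 TPM. The log2 fold change was 0.34 (SE 0.20, 95% interval -0.10 to 0.77, edgeR adjusted p 0.554), and 0.12 (adjusted p 0.790) without control replicate 2. The transcripts with identical coding sequence, ENST00000451270.6 and ENST00000421017.6, held 74.5% ± 4.52 and 15.2% ± 2.83 of its counts in control and 73.0% ± 0.427 and 18.2% ± 1.78 in siDDX5 cells (SD, n = 3 each). Processed pseudogenes of ANXA2 hold near-identical sequence, and ANXA2P1, ANXA2P2 and ANXA2P3 had at most 8 estimated counts in any library. These counts were made by dividing shared reads, so they cannot show how many reads were shared with ANXA2.

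S100A10 (ENSG00000197747.8, chromosome 1, 151982915 to 151994390, minus strand) had 136, 83.8 and 164 TPM in control replicates 1, 2 and 3 and 131, 105 and 157 TPM in siDDX5 replicates 1, 2 and 3. Replicate 2 was the lowest and replicate 3 the highest of both groups, and the groups overlapped. The log2 fold change was 0.07 (SE 0.22, 95% interval -0.42 to 0.55, edgeR adjusted p 0.939), and its sign changed without control replicate 2 (-0.15). The ratio of ANXA2 to S100A10 in TPM was 10.5, 10.2 and 8.55 in control replicates 1, 2 and 3 and 11.7, 13.5 and 9.62 in siDDX5 replicates 1, 2 and 3, so both partners were low together in control replicate 2. Whether something in that library lowers both genes was not tested. The leading transcript ENST00000368811.8 held 97.5% ± 0.551 of S100A10 counts in control and 99.0% ± 0.905 in siDDX5 cells (SD, n = 3 each), without overlap, and usage of S100A10 transcripts had too few forms for the test. As for SERPINE2, no rate over all transcripts stands beside this lack of overlap.

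PLGRKT encodes a transmembrane plasminogen receptor with a C-terminal lysine. PLGRKT (ENSG00000107020.9, chromosome 9, 5357973 to 5437878, minus strand) had 22.9, 24.7 and 26.0 TPM in control replicates 1, 2 and 3 and 26.5, 26.2 and 23.2 TPM in siDDX5 replicates 1, 2 and 3. It varied least of the 8 genes among the control libraries, with a coefficient of variation of 3.54% in CPM. Among the siDDX5 libraries that value was 11.7%, above those of ANXA2 (6.04%), PLAT (7.27%) and PLAUR (10.9%). The log2 fold change was 0.12 (SE 0.16, 95% interval -0.24 to 0.47, edgeR adjusted p 0.828). The transcript ENST00000223864.7 held 90.3% ± 0.982 of its counts in control and 91.8% ± 2.04 in siDDX5 cells (SD, n = 3 each), with overlap.

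**Figure D4:**
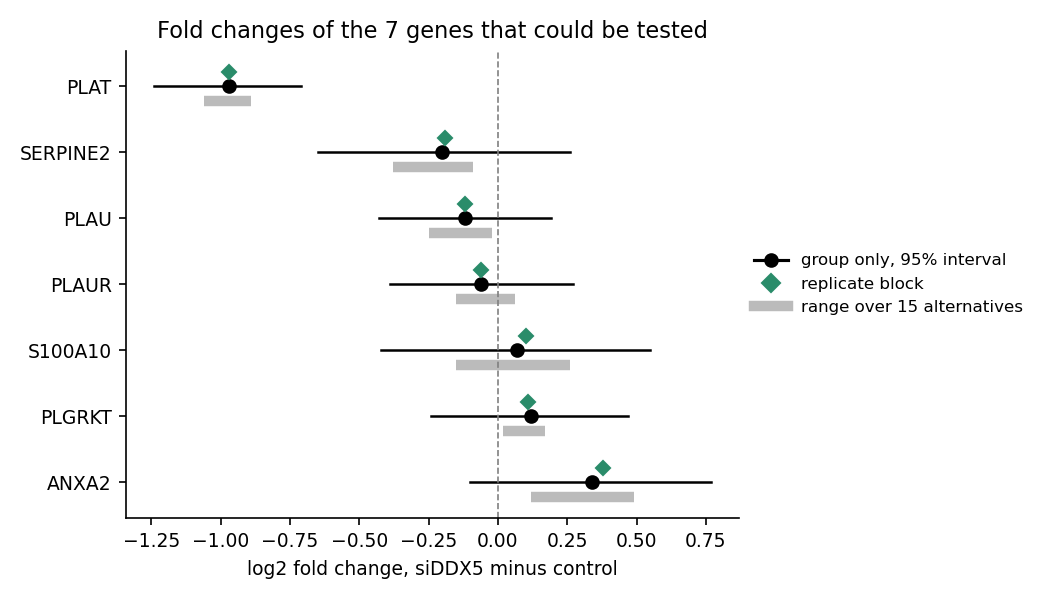
Log2 fold change of siDDX5 against control (horizontal axis) for the 7 genes tested. Black points and lines give the fit on the group alone with its 95% interval, green diamonds the fit with the replicate block, and grey bars the range over 15 alternative settings; PLAT, at -0.97, is the one gene whose interval lies apart from 0.

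Ordered by TPM in control cells, the genes ran ANXA2, S100A10, PLAT, PLAU, PLAUR, PLGRKT, SERPINE2 and SERPINB2. Each neighbour in this order was apart from the next in every library except PLAT and PLAU, which overlapped. In siDDX5 cells PLAU came before PLAT, and PLAT (31.3 to 43.7 TPM) overlapped PLAUR (27.6 to 32.3 TPM), from which it had been apart in control cells (67.5 to 77.2 against 29.8 to 38.1 TPM). All other neighbours kept their order.

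The genes whose CPM followed PLAT most closely over the 6 libraries, among the 10987 whose mean reached 5 CPM, were CTDSP2 (Pearson r of log2 CPM 0.996), DHRS1 (0.9958), C1orf159 (0.995), PKN3 (0.9921) and IMPDH1 (0.9903). These correlations rest on 6 libraries in 2 groups and describe only how alike the values ran over these libraries. CTDSP2, a phosphatase gene, had 2289, 1893 and 2068 CPM in control replicates 1, 2 and 3 and 961, 854 and 958 CPM in siDDX5 replicates 1, 2 and 3. Its log2 fold change was -1.17 and was called (adjusted p in edgeR 0.0115, and 0.00229 under the block). IMPDH1, which encodes an enzyme of guanine nucleotide synthesis, had one of -0.94 (adjusted p in edgeR 0.0559, and 0.00967 under the block), and the other 3 lay between -0.47 and -0.35.

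The other genes of the system were taken in 8 lists of 132 genes in all, of which 101 could be tested. None of the 101 was called in edgeR's test on the group alone, with 9 at an unadjusted p under 0.05, which 11.3% of all 15204 genes reached. With the replicate block 1 was called higher and 1 lower, beside 2.48% of all genes. Their median log2 fold change was -0.01. The block calls were TIMP2 and ITGB3. TIMP2, a secreted inhibitor of matrix metalloproteases, had 304, 284 and 272 CPM in control replicates 1, 2 and 3 and 196, 198 and 161 CPM in siDDX5 replicates 1, 2 and 3. All siDDX5 libraries lay below all control libraries, and the log2 fold change was -0.63 with SE 0.11 (adjusted p in edgeR 0.0696, and 0.0125 under the block). ITGB3, the integrin subunit of the vitronectin receptor, had 21.3, 8.17 and 25.2 CPM in control replicates 1, 2 and 3 and 30.6, 16.3 and 33.8 CPM with the knockdown. The groups overlapped, and each siDDX5 library lay above the control library of the same number (log2 fold change 0.56, SE 0.38, edgeR adjusted p 0.614, 0.0446 with the block).

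Of the 10 other plasminogen proteases and activators, 3 were tested and none called. Plasminogen itself (PLG) had 2.15 ± 0.376 TPM in control and 2.11 ± 0.215 TPM in siDDX5 cells, coagulation factor XII (F12) 1.49 ± 0.240 and 1.66 ± 0.103 TPM, and cathepsin B (CTSB) 92.3 ± 15.3 and 78.1 ± 8.45 TPM (SD, n = 3 each). Of the 17 other inhibitors 10 were tested and none called, with a median log2 fold change of 0.12. SERPINB6, an intracellular serpin, and TFPI, the inhibitor of the tissue factor pathway, had log2 fold changes of -0.16 and 0.20.

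All 12 other plasminogen receptors and annexin A2 partners were tested, with none called and a median of -0.12. The most abundant were GAPDH, ENO1 and ACTB, with log2 fold changes of 0.09, 0.05 and -0.27. Of the 24 uPAR partners and clearance receptors 22 were tested, and ITGB3 was called with the block and in none of the other 15 fits. LRP1, the endocytic receptor that clears activator and serpin complexes, had 632 ± 153 TPM in control and 481 ± 92.0 TPM in siDDX5 cells (SD, n = 3 each). Its fitted difference was -0.38 on the log2 scale, with an adjusted p of 0.453 in edgeR. ITGB1 and SORT1 had values of -0.12 and -0.01. Of the 26 matrix proteases and substrates 18 were tested, with TIMP2 called under the block and not in the fit on the group alone. TIMP2 was also called by DESeq2's Wald test (log2 fold change -0.63, adjusted p 0.000290) and in edgeR without a filter (-0.64, 0.0210). TIMP1, LAMC1 and THBS1, the most abundant of that list, had log2 fold changes of 0.10, -0.06 and 0.39.

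**Figure D5:**
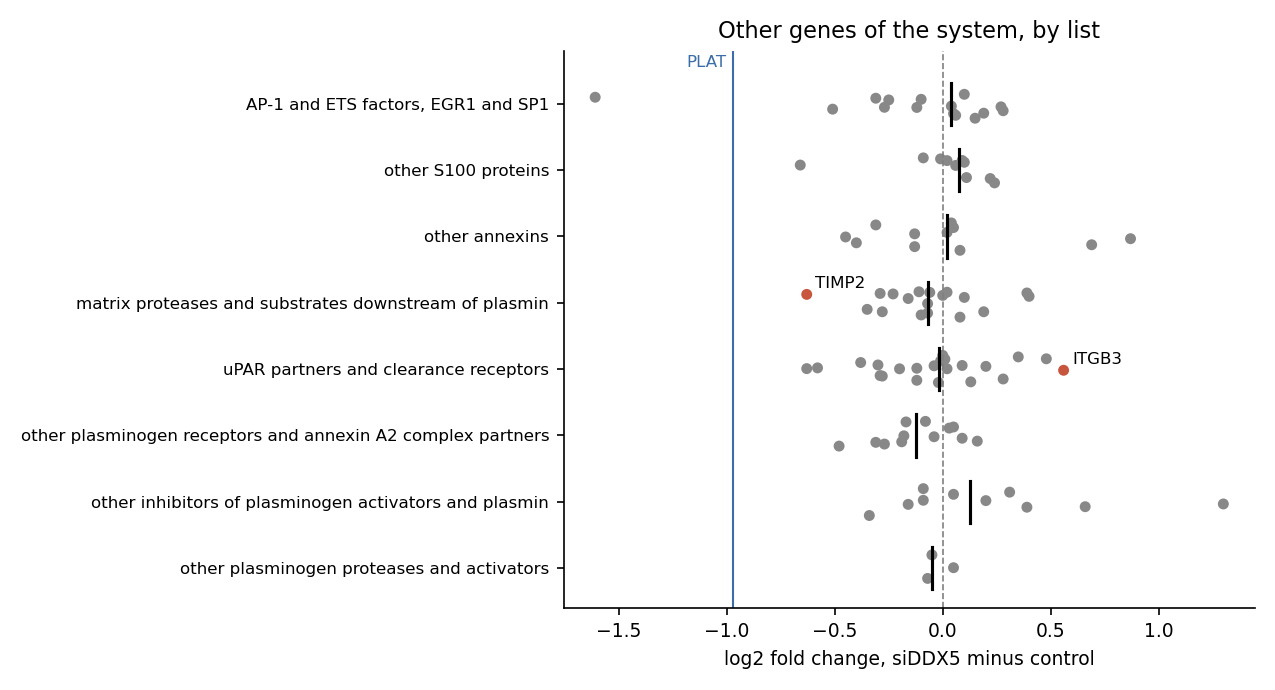
Log2 fold change of siDDX5 against control (horizontal axis) for the 101 tested genes of 8 lists, one row per list, with the list's median as a black bar. Red points are genes called with the replicate block, TIMP2 at -0.63 and ITGB3 at 0.56, and the blue line marks PLAT at -0.97; EGR1, at -1.61 and not called, is the gene further left.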

How the data were processed

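Messenger RNA of 3 control and 3 siDDX5 libraries of Rh30 was profiled with a stranded kit, per the labels. The authors deposited one table per library with an estimated count and a TPM value per transcript; the submitters' processing notes list bcl2fastq 2.20, FastQC 0.11.8, cutadapt 1.11 and kallisto 0.46.0 with GRCh38, without their roles, and the annotation release is not given in the sources used here. The deposited expected counts are not scaled, and the deposited TPM values are corrected for transcript length by the authors' tool and sum to a fixed total.

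Of 188753 transcripts, 169797 were joined to genes by identifier in GENCODE release 29 and 15291 on alternate sequences by symbol; 3665 were left out, and 99.26% to 99.32% of counts were joined. Estimated counts were summed per gene, rounded, filtered with filterByExpr, scaled with TMM and tested for the group alone (edgeR 4.0.16 in R 4.3.3, glmQLFit and glmQLFTest). Standard errors are the log2 fold change over the square root of F, and intervals use the degrees of freedom of that fit. CPM values are TMM-scaled. Transcript usage was tested with diffSpliceDGE and a Simes test. Precision is limited by depth at low counts: 3 counts are 0.115 to 0.165 CPM.

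Sample titles number the replicates without saying whether libraries of one number belong together. Deviations from the group means correlated at 0.18, 0.24 and 0.53 across genes for pairs 1, 2 and 3. Between libraries of different numbers they correlated at -0.32 to 0.08. The fit with the replicate block is therefore given where it matters.

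The genes and lists were chosen with earlier results of these data known. Named were all 8 genes, list genes called in either fit, the 3 genes of highest mean TPM in each list, transcripts with at least 10% of a gene's counts in either group, and the 5 genes closest to the gene of smallest p. One gene that this rule names is not reported here. Alternatives were DESeq2 1.42.0 size factors and Wald test, no filter, a mean of at least 50 counts, length-scaled TPM counts, limma-trend (limma 3.58.1) on log2(TPM + 1) and log2(TPM + 0.1), the block, identifier joins alone and leaving out each library. On simulated counts with 200 genes changed by 1 on the log2 scale, edgeR recovered 82.5% with 12 false calls among 15025 genes. The changed genes were drawn from those with a mean above 1 CPM. The simulated spread followed edgeR's trend with expression, without a replicate effect, so this recovery need not hold for the real libraries.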

Additional observations from a re-analysis of the deposited data

How the results depend on the processing

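PLAT stayed lower in all 15 alternatives and kept its call in 8. The call was lost with counts from length-scaled TPM, at -0.91 (adjusted p 0.0669), and with limma-trend, at -0.94 (0.109) for a pseudocount of 1 and -0.96 (0.121) for one of 0.1, and the fits without 1 library ranged from -1.06 to -0.89. PLAUR ranged from -0.12 to 0.06 without 1 library, with a changed sign without control replicate 3 (0.06) and without siDDX5 replicate 1 (0.03). S100A10 ranged from -0.15 to 0.26, with a changed sign without control replicate 2 (-0.15) and without siDDX5 replicate 3 (-0.06). Of the 105 values for 7 genes under these alternatives, 94 kept direction and side of the threshold.

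The number of genes called, 26, became 377 under the replicate block, 304 by DESeq2's Wald test, 129 when unfiltered, 2 from length-scaled TPM and 1 for either limma-trend pseudocount. It ran from 0 to 16 without 1 library. Leaving out control replicate 1 gave 0 in edgeR (1242 at an unadjusted p under 0.05), as did leaving out siDDX5 replicate 1 (2036). The number of list genes called, 0, became 1 by DESeq2's Wald test and 1 when unfiltered (TIMP2 in each) and 2 under the replicate block. The replicate block changed no call among the 7 genes. Genes with changed transcript usage, 169, became 396 when unfiltered and 41 for transcripts averaging 50 counts or more, and ran from 223 to 445 without 1 library (445 without siDDX5 replicate 1). What causes these shifts was not tested.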

Other observations

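Annexins and S100 proteins other than ANXA2 and S100A10 were measured in the same libraries. All 11 other annexins were tested and none was called, with 3 at an unadjusted p under 0.05 in edgeR's test (11.3% of all genes tested). ANXA1, a membrane-binding protein of inflammatory signalling, had 367, 292 and 372 CPM in control replicates 1, 2 and 3 and 251, 267 and 266 CPM in siDDX5 replicates 1, 2 and 3. Its groups were apart (log2 fold change -0.40, SE 0.12, adjusted p in edgeR 0.252, and 0.0921 under the block). The other 2 were chosen after their values were seen. ANXA10 had 0.650 to 1.32 CPM in control and 1.74 to 2.13 CPM in siDDX5 libraries (0.87, SE 0.31, edgeR adjusted p 0.327). ANXA3 had 1.70 to 2.14 CPM in control and 1.99 to 4.34 CPM in siDDX5 libraries, with overlap (0.69, SE 0.30, edgeR adjusted p 0.431). ANXA5 and ANXA6 had log2 fold changes of 0.05 and 0.04. Of the 17 other S100 genes 10 were tested and none called; S100A11, S100A6 and S100A2, the most abundant, had values of 0.10, 0.11 and -0.09.

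The list of transcription factors held 15 genes, AP-1 and ETS factors together with the zinc finger factors EGR1 and SP1, and none was called. JUN, ETS1 and FOSL2, the most abundant, had log2 fold changes of 0.10, 0.04 and 0.27. EGR1, named here after its values were seen, had 147 CPM in control replicate 1 and 15.4 to 35.6 CPM in the other 5 libraries, and the fitted difference was -1.61 on the log2 scale (SE 0.57), at an adjusted p of 0.330 in edgeR.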
